A study of Mus musculus with 58 samples.

Results

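The 46 genes described here are the nuclear-coded subunits of respiratory complexes II to V and cytochrome c, measured by bulk RNA sequencing of mouse prefrontal cortex. They were chosen by symbol and a count threshold: every protein-coding gene called Sdha, Sdhb, Sdhc, Sdhd, Cyc1 or Cycs, or with a symbol that begins with Uqcr, Cox4, Cox5, Cox6, Cox7, Cox8 or Atp5, with a normalized count of at least 10 in at least 4 libraries. The deposited table held 46 such genes among 18088, and all 46 were among the 17925 genes that passed the same threshold. Complex II has 4 of them, complex III with cytochrome c 10, complex IV 15 and complex V 17. Cox7b2, Cox8b, Cox8c and another identifier for Atp5o also match by name and were not analysed here.

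The 58 libraries came from 30 female and 28 male C57BL/6J mice examined on postnatal day 25. From day 3 to day 24 their dams were given lithium, fluoxetine (a serotonin reuptake inhibitor) or vehicle, which reached the pups through milk. Each drug was given to mice labelled heterozygous (HT) for Tanc2, which codes for a postsynaptic scaffold protein, and to mice labelled wild-type (WT). The arms were HT lithium (9 libraries), HT fluoxetine (10), HT vehicle (10), WT lithium (10), WT fluoxetine (10) and WT vehicle (9), with 5 libraries of each sex except for 4 HT lithium males and 4 WT vehicle males. No dose, allele or litter is named in the labels, so each mouse was treated as independent although pups of a dam share her milk.

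The respiratory chain passes electrons from nutrients to oxygen and pumps protons across the inner mitochondrial membrane. Complex II (succinate dehydrogenase) feeds electrons from the citric acid cycle into the membrane pool of ubiquinone, complex III hands them to cytochrome c, complex IV (cytochrome c oxidase) passes them to oxygen, and complex V (ATP synthase) lets the protons flow back to make ATP. Neurons meet most of their energy need in this way, and the catalytic heart of complexes III to V also needs a few subunits coded by mitochondrial DNA.

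Facts of the whole series bear on what follows. Libraries held 23271044 to 37801615 recovered reads with a median of 27912120. Markers of cortical excitatory neurons were present in every library, with summed normalized counts of 45339 to 71256. Tanc2 itself was not lower in the HT-labelled mice: it averaged 8093 ± 381 in HT vehicle (SD, n = 10) and 7541 ± 387 in WT vehicle (SD, n = 9), so that HT and WT below are the labels and not a genotype seen in these reads. Reads assigned to the pseudogene Gm10221 were present in 27 libraries, namely all 19 given lithium, 5 of 5 HT fluoxetine females and 3 of 5 WT fluoxetine females, and in none of the fluoxetine males or vehicle libraries. Lithium against vehicle therefore cannot be told apart from whatever set these libraries apart. The library HT lithium female 4 was the highest of all 58 for 31 of the 46 genes, and WT fluoxetine male 5 was the lowest for 19.

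Promoter windows are shown for the pair of complex IV subunits with the smallest p under lithium in both genotypes, and for Uqcr11 of complex III and cytochrome c (Cycs), which hold motifs of known activators. Each sequence is a window from 120 bases before to 30 after the transcription start that RefSeq gives on GRCm38.p6, written 5′ to 3′ on the gene's strand. Cox5a lies at chr9:57521112-57521261 (+), Cox5b at chr1:36691367-36691516 (+), Uqcr11 at chr10:80406792-80406941 (-) and Cycs at chr6:50566540-50566689 (-). Capitals mark matches to GCGCATGCG (the NRF1 motif) and CCGGAAG (an ETS motif, bound by GABPA among others), both strands searched. NRF1 and GABPA are known activators of nuclear-coded respiratory genes.
Cox5a: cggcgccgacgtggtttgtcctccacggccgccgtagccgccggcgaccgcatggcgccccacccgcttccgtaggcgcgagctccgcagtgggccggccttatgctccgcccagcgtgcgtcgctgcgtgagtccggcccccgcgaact
Cox5b: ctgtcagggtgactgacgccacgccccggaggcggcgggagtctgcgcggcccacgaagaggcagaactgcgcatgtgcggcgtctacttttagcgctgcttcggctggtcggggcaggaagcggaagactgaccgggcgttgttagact
Uqcr11: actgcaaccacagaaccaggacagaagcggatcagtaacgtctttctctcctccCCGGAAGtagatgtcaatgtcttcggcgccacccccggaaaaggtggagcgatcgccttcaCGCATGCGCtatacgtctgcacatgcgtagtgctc
Cycs: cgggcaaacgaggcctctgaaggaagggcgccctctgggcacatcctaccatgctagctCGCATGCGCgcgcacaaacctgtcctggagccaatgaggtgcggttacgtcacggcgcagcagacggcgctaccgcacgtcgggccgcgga
Neither Cox5 window holds a match, Uqcr11 holds one of each kind and Cycs holds an NRF1 match.

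RefSeq promoters (250 bases before to 50 after the start) were found for 33 of the 46 genes. The NRF1 letters were in 7 of the 33 (21.2%, against 1.95% of all gene symbols with a promoter): Atp5g2, Atp5k, Atp5l, Cox6a1, Cycs, Uqcr11 and Uqcrc1. The ETS letters were in 12 (36.4% against 9.93%). AAGATGGCG, the motif of YY1, was in Atp5j and Atp5j2 only, which is 6.06% against 1.64%. A match is a description of the letters and not a bound site, and a match to more than one motif was counted under each. Of the 16 genes with any match, 7 passed the test described below in HT and 7 in WT, and of the 17 with none, 10 passed in HT and 10 in WT.

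The 46 genes span a wide range of levels. Levels compared between genes are mean normalized counts per kilobase of transcript over all 58 libraries. The length used is the median over a gene's annotated protein-coding transcripts, and not that of the form expressed in these samples. In complex II the order was Sdha (3350.3, the flavoprotein that oxidizes succinate), Sdhb (2329, the iron-sulfur subunit), and the membrane anchors Sdhd (1636) and Sdhc (879). In complex III the small hinge protein Uqcrh was highest at 6716, followed by the small subunits Uqcr11 (4848), Uqcrq (4831) and Uqcr10 (3599), the core protein Uqcrc1 (3180.0), the small subunit Uqcrb (2942), the other core protein Uqcrc2 (2587), cytochrome c1 (Cyc1, 2352), the Rieske iron-sulfur protein Uqcrfs1 (1833) and the mobile carrier cytochrome c (Cycs, 872).

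Complex IV held both the highest and the lowest levels. Cox8a stood at 16575 per kilobase, Cox4i1 at 13133, Cox6a1 at 11433, Cox6b1 at 8525 and Cox6c at 8037, with Cox7c, Cox5b, Cox7a2, Cox5a, Cox7b and Cox7a2l between 2897 and 5778. The isoform genes known from other tissues were far lower. The heart and skeletal muscle form Cox6a2 stood at 171, the testis form Cox6b2 at 39.3, the lung form Cox4i2 at 33.4 and the heart and skeletal muscle form Cox7a1 at 28.3. In complex V the catalytic β subunit Atp5b (13167) and the α subunit Atp5a1 (7913) were highest. Of the 3 genes that code for one and the same mature c-ring protein, Atp5g3 stood at 5349.8, Atp5g1 at 1220.4 and Atp5g2 at 344, and Atp5s (factor B) was lowest at 212. Before division by length, Atp5g3 averaged 3844 normalized counts and Atp5g1 3265, with lengths of 718.5 and 2675.5 bases. The other 11 genes of complex V, which code for the γ, δ and ε subunits and for stalk and small membrane subunits, lay between 2413 and 5308. Several of the genes, such as Cox6c, Uqcrh and Cycs, have retroposed copies in the genome, so that the division of reads between copies makes their values less certain.

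**Figure D1:**
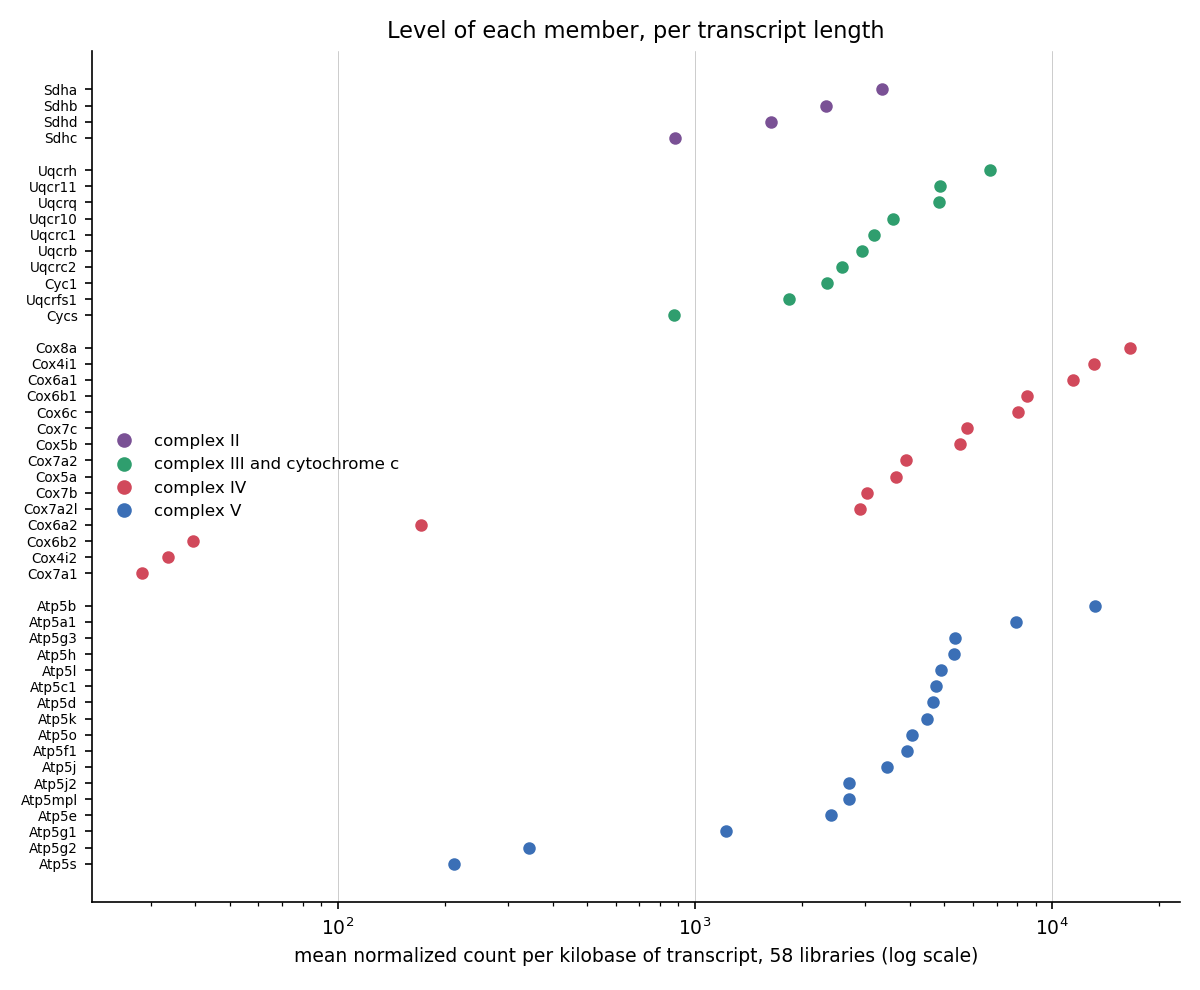
Mean normalized count per kilobase of transcript (log axis) of each of the 46 genes over the 58 libraries, grouped by complex. Cox8a is highest at 16575, and the tissue isoforms Cox6a2, Cox6b2, Cox4i2 and Cox7a1 stand at 171 or below.

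Lithium was set against vehicle first, in each genotype. In HT, 24 of the 46 genes were higher and 0 lower in lithium libraries (limma on log2(normalized count + 1), Benjamini-Hochberg adjusted p under 0.05 over all genes), where 16.3% of all genes tested passed and 8.25% were higher. The median log2 difference of the 46 was 0.17, against 4.9e-05 over all genes, and 43 of 46 were above 0. In WT, 21 were higher and 0 lower, where 7.47% of all genes passed and 4.34% were higher, with a median of 0.16 against -0.0056 over all genes and 44 of 46 above 0. Genes of all 4 complexes passed in both genotypes. Leaving out HT lithium female 4 left 18 higher and 0 lower in HT, with a median of 0.13 and 12.4% of all genes passing. In these bulk samples, more cells of a type and more RNA per cell cannot be told apart.

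Lithium was set against vehicle in separate mice for HT and WT, and 17 genes were higher in both, which is 70.8% of the HT list and 81.0% of the WT list. Over all genes tested, 503 were higher in both, which is 34.0% of the 1479 higher in HT and 64.7% of the 778 higher in WT. In complex II they were Sdhb and Sdhc. In complex III it was Uqcrfs1, and in complex IV Cox5a, Cox5b, Cox6c, Cox7a2l, Cox7b and Cox8a. In complex V they were Atp5c1, Atp5d, Atp5f1, Atp5g3, Atp5j, Atp5j2, Atp5mpl and Atp5o. A further 7 passed in HT but not in WT (Atp5h, Atp5s, Cox7c, Cycs, Uqcrb, Uqcrc2 and Uqcrh), and 4 in WT but not in HT (Atp5k, Cox6a1, Cox7a1 and Uqcr11). The remaining 18 passed in neither, among them the flavoprotein Sdha, the α and β subunits Atp5a1 and Atp5b, the core protein Uqcrc1, cytochrome c1 (Cyc1) and the main form of subunit 4, Cox4i1.

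**Figure D2:**
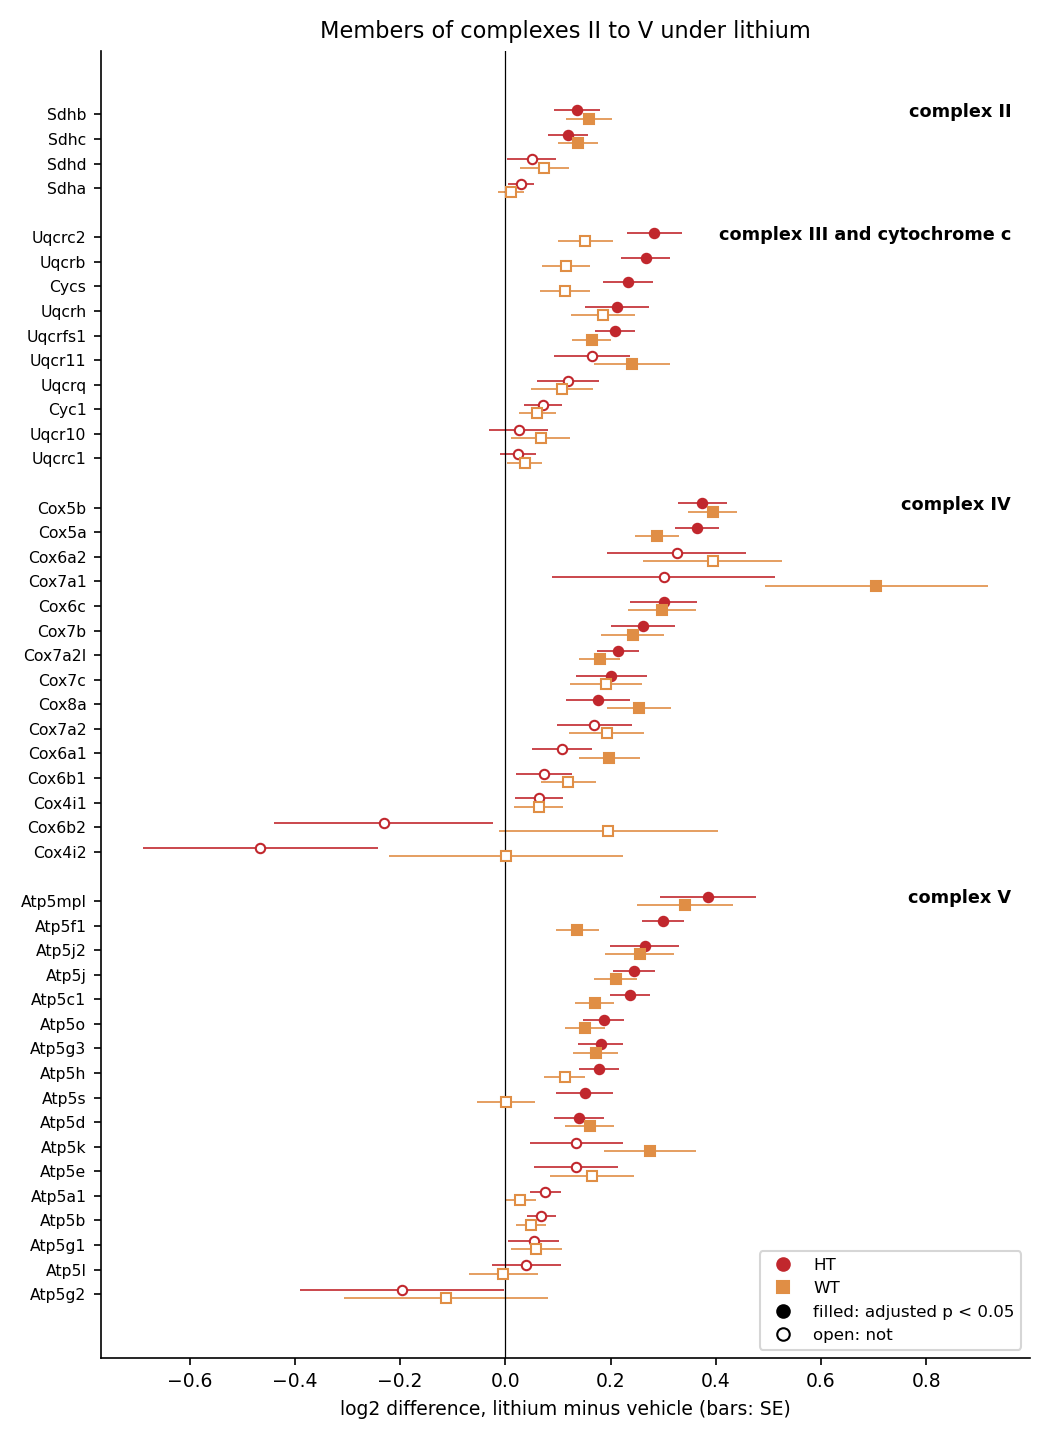
Log2 difference of lithium against vehicle (points, filled where they passed, with bars of 1 SE from limma) for each of the 46 genes in HT and WT, grouped by complex; the x axis is on the log2(normalized count + 1) scale. Most points lie to the right of 0, with Cox5a and Cox5b between 0.29 and 0.39 in both genotypes and wide bars on the low isoform genes.

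Complex II, the succinate dehydrogenase, had the smallest HT median of the complexes (0.08) and a WT median of 0.11. Sdhc, a membrane anchor that helps hold the haem, was 1604 to 2189 normalized counts in HT lithium libraries with a median of 1807, against 1606 to 1779 with a median of 1699 in HT vehicle. These ranges overlap widely, and the log2 difference was 0.12 ± 0.04 in HT (SE, adjusted p = 0.0216) and 0.14 ± 0.04 in WT (adjusted p = 0.0145). In WT the ranges were 1725 to 1950 (median 1834) in lithium and 1579 to 1786 (median 1674) in vehicle. Sdhb, which carries the iron-sulfur centres, differed by 0.14 ± 0.04 in HT (adjusted p = 0.0231) and by 0.16 ± 0.04 in WT (adjusted p = 0.015). Its HT ranges were 2550 to 3442 (median 2799) in lithium and 2282 to 2721 (median 2610) in vehicle, and its WT ranges 2664 to 3061 (median 2817) in lithium and 2405 to 2689 (median 2505) in vehicle. Without HT lithium female 4 the HT calls of both were lost (Sdhc 0.09, adjusted p = 0.0763; Sdhb 0.10, adjusted p = 0.0799). Leaving out HT lithium male 1 also ended the call of Sdhc (adjusted p = 0.0712), and leaving out HT vehicle female 5 or HT vehicle male 5 that of Sdhb (adjusted p of at least 0.0597). Neither HT call held when the fit included only the groups compared (adjusted p = 0.112 for Sdhc and 0.0767 for Sdhb), and the WT call of Sdhb did not hold without libraries high in striatal markers, described further on (0.14, adjusted p = 0.072). Sdha, the catalytic flavoprotein, differed by 0.03 ± 0.02 in HT (adjusted p = 0.471) and 0.01 ± 0.02 in WT (adjusted p = 0.859), and Sdhd passed in neither.

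In complex III 5 of 10 genes were higher under lithium in HT and 2 of 10 in WT, with medians of 0.19 and 0.11. Uqcrfs1, the Rieske protein that takes electrons from ubiquinol, was 2403 to 3089 in HT lithium with a median of 2655, against 2122 to 2404 with a median of 2312 in HT vehicle. In WT it was 2500 to 2862 (median 2678) in lithium and 2197 to 2672 (median 2390) in vehicle. The highest HT vehicle library stood level with the lowest HT lithium one and the WT arms overlapped, and the differences were 0.21 ± 0.04 in HT (adjusted p = 8.62e-05) and 0.16 ± 0.04 in WT (adjusted p = 0.00349). Uqcrb, a small subunit near the quinone site, was 1642 to 2283 in HT lithium with a median of 1767, against 1403 to 1604 with a median of 1469 in HT vehicle. These arms did not overlap, and the difference was 0.27 ± 0.05 (adjusted p = 4.60e-05). In WT the ranges were 1434 to 1822 (median 1598) in lithium and 1345 to 1576 (median 1496) in vehicle, a difference of 0.12 that did not pass (adjusted p = 0.123).

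Uqcrc2, a core protein, had a median of 5590 (4508 to 6426) in HT lithium and 4527 (3947 to 5033) in HT vehicle, a difference of 0.28 ± 0.05 (adjusted p = 0.000115), and it did not pass in WT. Its partner core protein Uqcrc1 differed by 0.02 ± 0.03 in HT (adjusted p = 0.688) and by 0.04 in WT, and passed in neither. Cycs had a median of 2946 (2609 to 3416) in HT lithium and 2535 (2310 to 2744) in HT vehicle, a difference of 0.23 ± 0.05 (adjusted p = 0.0004), and it too did not pass in WT. Uqcr11, a small accessory subunit, passed in WT and not in HT, at 2040 to 2665 (median 2359) in WT lithium and 1656 to 2199 (median 2085) in WT vehicle, with a difference of 0.24 ± 0.07 (adjusted p = 0.0285). That call was lost on leaving out any of WT lithium female 2, WT lithium male 3, WT vehicle female 2 or WT vehicle male 3 (adjusted p of 0.054 to 0.0737), and with length and GC trends removed the difference was -0.014 (adjusted p = 0.942). Without libraries high in striatal markers it was 0.23 (adjusted p = 0.0715).

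In complex IV 7 of 15 genes were higher under lithium in HT and 8 of 15 in WT, each with a median of 0.20. Cox5a and Cox5b code for matrix-side subunits of cytochrome c oxidase. Cox5a was 2446 to 3291 in HT lithium with a median of 2621, against 1828 to 2264 with a median of 2077 in HT vehicle. The arms did not overlap, all 9 HT lithium libraries were above the mean of the vehicle mice of their sex, and the difference was 0.37 ± 0.04 (adjusted p = 3.63e-08). In WT it was 2430 to 2847 (median 2688) in lithium and 1988 to 2490 (median 2157) in vehicle, with a slight overlap. The WT difference of Cox5a was 0.29 ± 0.04 (adjusted p = 4.83e-06). By limma within one sex it did not pass in WT females (0.22, adjusted p = 0.121) and passed in WT males (0.36, adjusted p = 9.62e-05). Cox5b was 4337 to 6229.7 in HT lithium with a median of 4551, against 3342 to 4155 with a median of 3564 in HT vehicle. In WT it was 4454 to 5444 (median 4691) in lithium and 3354 to 3905 (median 3614) in vehicle. Neither pair of arms overlapped for Cox5b, whose differences were 0.37 ± 0.05 in HT (adjusted p = 1.72e-07) and 0.39 ± 0.05 in WT (adjusted p = 7.33e-08). Without HT lithium female 4 the HT values were 0.33 for Cox5a (adjusted p = 2.36e-08) and 0.33 for Cox5b (adjusted p = 1.14e-07).

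**Figure D3:**
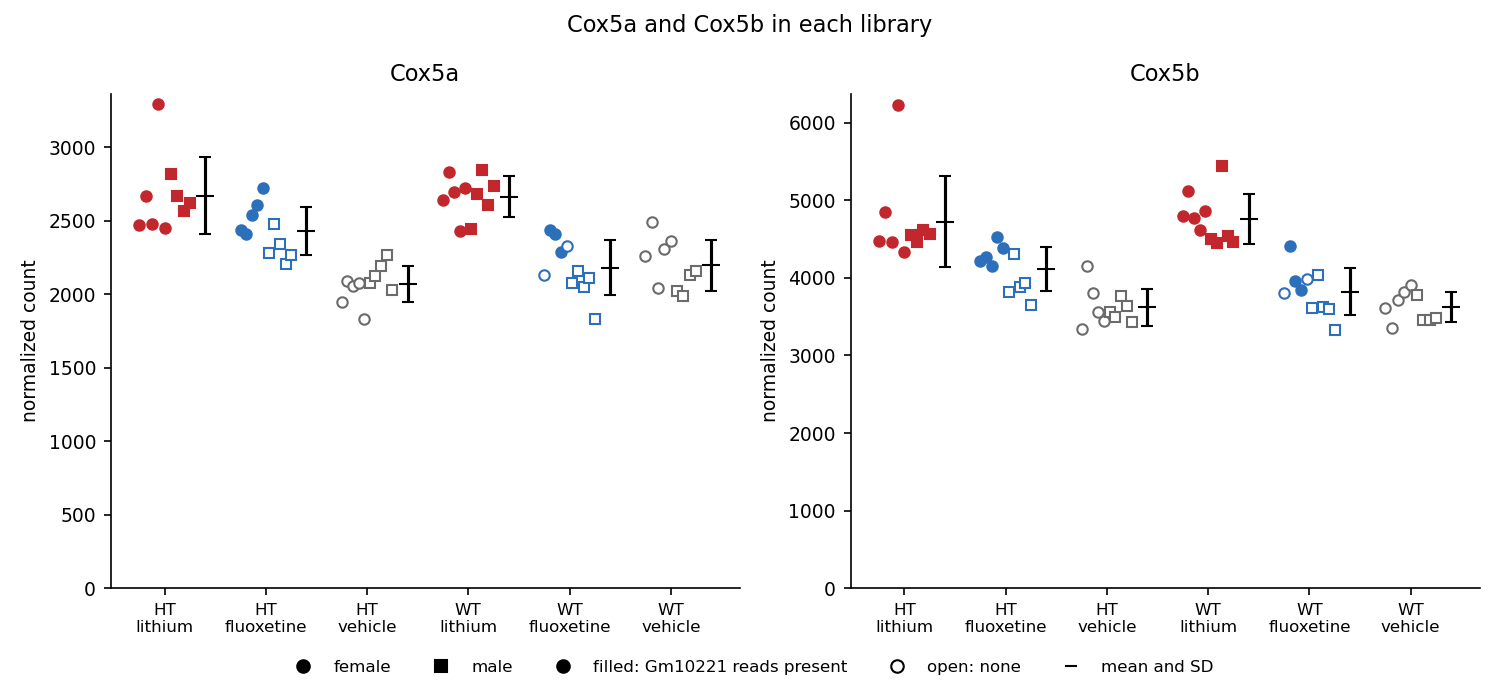
Normalized counts of Cox5a and Cox5b in each of the 58 libraries (points), by genotype and drug, with the arm mean and SD as a black bar; circles are females, squares males, and filled symbols are libraries with Gm10221 reads. In HT the lithium libraries of Cox5a start at 2446 and the vehicle libraries end at 2264, and the fluoxetine libraries run between 2205 and 2723.

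Over the 46 genes, lithium and vehicle arms did not overlap, with lithium higher, for 3 in HT (Cox5a, Cox5b and Uqcrb), where 0.72% of all genes did so, and for 4 in WT (Atp5j, Atp5o, Cox5b and Cox6c), where 0.63% did. Cox6c, a small subunit of the membrane part, was 4948 to 5823 (median 5409) in WT lithium and 3919 to 4879 (median 4322) in WT vehicle, a difference of 0.30 ± 0.06 (adjusted p = 0.00211). In HT it was 4677 to 7004 (median 5527) in lithium and 4033 to 5152 (median 4381) in vehicle, with some overlap and a difference of 0.30 ± 0.06 (adjusted p = 0.000777). Cox8a, the most abundant of the 46 per kilobase, differed by 0.18 ± 0.06 in HT (adjusted p = 0.0383) and 0.25 ± 0.06 in WT (adjusted p = 0.00543). The HT call of Cox8a was lost on leaving out any one of 12 libraries (HT lithium female 2, HT lithium female 4, HT lithium male 1, HT lithium male 2, HT lithium male 4, HT vehicle female 1, HT vehicle female 3, HT vehicle female 4, HT vehicle female 5, HT vehicle male 2, HT vehicle male 4 and HT vehicle male 5; adjusted p of 0.0512 to 0.119) and when the fit included only the groups compared (adjusted p = 0.0715). With length and GC trends removed, Cox8a was at 0.05 in HT (adjusted p = 0.542) and 0.07 in WT (adjusted p = 0.5), so that it passed in neither genotype.

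Complex IV has tissue isoforms for some subunits. Of the subunit 4 genes, Cox4i1 differed by 0.06 ± 0.05 in HT (adjusted p = 0.381) and 0.06 ± 0.05 in WT (adjusted p = 0.467), and the rare lung form Cox4i2 by -0.47 ± 0.22 in HT (adjusted p = 0.152) and 0.00 ± 0.22 in WT (adjusted p = 0.999). Cox4i2 had 5.83 to 29.4 normalized counts (median 17.7) in HT lithium and 13.0 to 37.3 (median 24.4) in HT vehicle, so few that the arms overlap throughout. Leaving out HT lithium female 5 put Cox4i2 past the threshold as lower in HT (-0.60, adjusted p = 0.0467). Without HT lithium female 4, the HT difference was 0.03 for Cox4i1. Of the subunit 6a genes, the liver-type Cox6a1 passed in WT (0.20 ± 0.06, adjusted p = 0.0236) and not in HT (0.11 ± 0.06, adjusted p = 0.21). The WT call of Cox6a1 was lost without WT lithium male 3, WT vehicle female 2 or WT vehicle male 3 (adjusted p of 0.0545 to 0.0686) and without libraries high in striatal markers (0.18, adjusted p = 0.0856). With length and GC trends removed Cox6a1 was at 0.016 in WT (adjusted p = 0.911) and -0.013 in HT (adjusted p = 0.894), and without HT lithium female 4 it was at 0.07 in HT. Its muscle counterpart Cox6a2 differed by 0.33 ± 0.13 in HT (adjusted p = 0.0837) and 0.39 ± 0.13 in WT (adjusted p = 0.0554). Cox6a2 lay close to the threshold. In WT it passed by DESeq2 (adjusted p = 0.0369), with a minimum of 50 normalized counts (adjusted p = 0.0487), with only the groups compared (adjusted p = 0.023), without libraries high in olfactory markers (0.42, adjusted p = 0.0141) and in 10 of the 58 fits that left out a library. In HT it passed without HT lithium female 5 (0.40, adjusted p = 0.029) or HT vehicle female 2 (0.39, adjusted p = 0.0374). Cox6b1 (0.07 ± 0.05 in HT and 0.12 ± 0.05 in WT) and the testis form Cox6b2 (-0.23 ± 0.21 in HT and 0.20 ± 0.21 in WT) passed in neither. Without HT lithium female 4 the HT difference of Cox6b1 was 0.03. With length and GC trends removed Cox6b1 was at -0.088 in HT (adjusted p = 0.293) and -0.062 in WT (adjusted p = 0.585), whereas with only the groups compared it passed in WT (0.12, adjusted p = 0.0408).

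Of the subunit 7a genes, Cox7a2l differed by 0.21 ± 0.04 in HT (adjusted p = 0.000116) and 0.18 ± 0.04 in WT (adjusted p = 0.00245). The common form Cox7a2 differed by 0.17 ± 0.07 in HT (adjusted p = 0.097) and 0.19 ± 0.07 in WT (adjusted p = 0.0897) and did not pass. The muscle form Cox7a1 passed in WT at 0.70 ± 0.21 (adjusted p = 0.0306), from very few reads: 7.86 to 25.0 normalized counts (median 15.2) in WT lithium and 4.37 to 18.4 (median 8.61) in WT vehicle. In WT lithium the females lay above the males: females had 15.9 to 25.0 in WT lithium and 5.76 to 18.4 in WT vehicle, with 7.86 to 14.5 in WT lithium males and 4.37 to 13.8 in WT vehicle males. The call was lost on leaving out any one of WT lithium female 2, WT lithium female 4, WT lithium male 2, WT lithium male 3, WT vehicle female 2, WT vehicle female 4, WT vehicle male 1 and WT vehicle male 4 (8 libraries, adjusted p of 0.0503 to 0.114). It was also lost by DESeq2 (adjusted p = 0.0567), with length and GC trends removed (0.49, adjusted p = 0.179) and without libraries high in olfactory markers (0.66, adjusted p = 0.053). In HT the difference of Cox7a1 was 0.30 ± 0.21 (adjusted p = 0.364), with 0.96 in females alone (adjusted p = 0.0287) and -0.35 in males alone (adjusted p = 0.677). Leaving out one library moved the HT value between 0.14 (without HT lithium male 2) and 0.47 (without HT lithium male 1).

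In complex V, 10 of 17 genes were higher under lithium in HT and 9 of 17 in WT, each with a median of 0.15. Atp5j, which codes for coupling factor 6 of the stalk, was 2443 to 3370 in HT lithium with a median of 2761, against 2213 to 2514 with a median of 2356 in HT vehicle. In WT it was 2595 to 2947 (median 2745) in lithium and 2237 to 2469 (median 2407) in vehicle. The WT arms did not overlap and the HT arms overlapped slightly, and the differences were 0.24 ± 0.04 in HT (adjusted p = 2.13e-05) and 0.21 ± 0.04 in WT (adjusted p = 0.000439). Atp5f1, subunit b of the peripheral stalk, was 6234 to 8634 (median 6898) in HT lithium and 5361 to 6314 (median 5678) in HT vehicle, a difference of 0.30 ± 0.04 (adjusted p = 7.02e-07). In WT its difference was 0.14 ± 0.04 (adjusted p = 0.026), from 5829 to 7004 (median 6767) in lithium and 5572 to 6392 (median 5990) in vehicle. Atp5c1, the γ shaft of the rotor, differed by 0.24 ± 0.04 in HT (adjusted p = 1.08e-05) and 0.17 ± 0.04 in WT (adjusted p = 0.00243).

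The stalk subunit OSCP (Atp5o) was 3434 to 3862 (median 3625) in WT lithium and 3078 to 3393 (median 3330) in WT vehicle, with no overlap and a difference of 0.15 (adjusted p = 0.00891). Of the c-ring genes, Atp5g3, the most abundant of them, differed by 0.18 ± 0.04 in HT (adjusted p = 0.00215) and 0.17 ± 0.04 in WT (adjusted p = 0.00772). With length and GC trends removed Atp5g3 no longer passed, at 0.09 in HT (adjusted p = 0.0928) and 0.09 in WT (adjusted p = 0.164). Atp5g1 differed by 0.05 ± 0.05 in HT (adjusted p = 0.5) and 0.06 in WT (adjusted p = 0.534), and Atp5g2 by -0.20 ± 0.19 in HT (adjusted p = 0.544) and -0.11 ± 0.19 in WT (adjusted p = 0.808). Without HT lithium female 4 the HT difference of Atp5g1 was 0.02. Whether the 3 genes' differences differ from each other was not tested. The hexamer subunits Atp5a1 (0.08 ± 0.03, adjusted p = 0.0711) and Atp5b (0.07 ± 0.03, adjusted p = 0.09) did not pass in HT, nor in WT. The other genes of complex V that passed in HT lay between 0.14 (Atp5d, the δ subunit) and 0.39 (Atp5mpl, a small proteolipid), and Atp5mpl was at 0.34 in WT.

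Fluoxetine was set against the same vehicle libraries. In HT, 4 of the 46 genes were higher and 0 lower, where 3.54% of all genes passed and 1.46% were higher. The median of the 46 was 0.06, 44 were above 0, and 14 had an unadjusted p under 0.05. The 4 were Cox5a, Cox5b, Uqcrfs1 and Atp5j, and none was in complex II. Cox5a was 2205 to 2723 (median 2424) in HT fluoxetine and 1828 to 2264 (median 2077) in HT vehicle, a difference of 0.23 ± 0.04 (adjusted p = 0.000252), and all 10 HT fluoxetine libraries were above the mean of the vehicle mice of their sex. By sex, it averaged 2543 in HT fluoxetine females and 1998 in HT vehicle females, and 2315 in HT fluoxetine males and 2137 in HT vehicle males. Cox5b was 3656 to 4531 (median 4186) in HT fluoxetine and 3342 to 4155 (median 3564) in HT vehicle, a difference of 0.19 ± 0.05 (adjusted p = 0.0117). Both genes had overlapping arms.

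Uqcrfs1 differed by 0.15 ± 0.04 in HT fluoxetine against HT vehicle (adjusted p = 0.0141), from 2335 to 2801 (median 2534) in fluoxetine and 2122 to 2404 (median 2312) in vehicle. It no longer passed with length and GC trends removed (0.13, adjusted p = 0.0532) or without libraries high in striatal markers (0.13, adjusted p = 0.054). Atp5j differed by 0.16 ± 0.04 (adjusted p = 0.0148), from 2167 to 2893 (median 2666) in fluoxetine and 2213 to 2514 (median 2356) in vehicle, and at 0.13 it no longer passed without HT fluoxetine male 2 (adjusted p = 0.0518). Next in their complexes, Atp5f1 (0.12 ± 0.04, adjusted p = 0.0748), Cycs (0.12 ± 0.05, adjusted p = 0.131), Sdhc (0.06 ± 0.04, adjusted p = 0.442) and Sdha (0.03 ± 0.02, adjusted p = 0.507) did not pass. Within one sex, 2 genes passed in HT females, where 1.32% of all genes passed, and 0 in HT males, where 0.123% did. Among libraries without Gm10221 reads, which in HT fluoxetine are the 5 males, 0 of the 46 passed and 0.536% of all genes did.

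In WT, 0 of the 46 genes passed for fluoxetine against vehicle by limma, by edgeR and by DESeq2, and 0 had an unadjusted limma p under 0.05, where 1.38% of all genes passed and 0.469% were higher. The median was -0.0021 and 22 of 46 were above 0. Cox5a was 1830 to 2438 (median 2143) in WT fluoxetine and 1988 to 2490 (median 2157) in WT vehicle, and Cox5b 3328 to 4411 (median 3826) in WT fluoxetine and 3354 to 3905 (median 3614) in WT vehicle. The arms overlap for both, and the Cox5b range reached further up in WT fluoxetine (4411 against 3905). Of the 10 WT fluoxetine libraries, 9 for Cox5b and 6 for Cox5a were above the mean of the vehicle mice of their sex. The smallest p values in each complex belonged to Cox4i2 (-0.39 ± 0.22, adjusted p = 0.594) and Cox5b (0.08 ± 0.05, adjusted p = 0.606) in complex IV, Atp5l (-0.11 ± 0.07, adjusted p = 0.606) and Atp5e (-0.12 ± 0.08, adjusted p = 0.674) in complex V, Uqcrq (-0.07 ± 0.06, adjusted p = 0.763) and Uqcrb (0.05 ± 0.05, adjusted p = 0.787) in complex III, and Sdhc (0.04 ± 0.04, adjusted p = 0.807) and Sdhd (-0.02 ± 0.05, adjusted p = 0.94) in complex II.

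**Figure D4:**
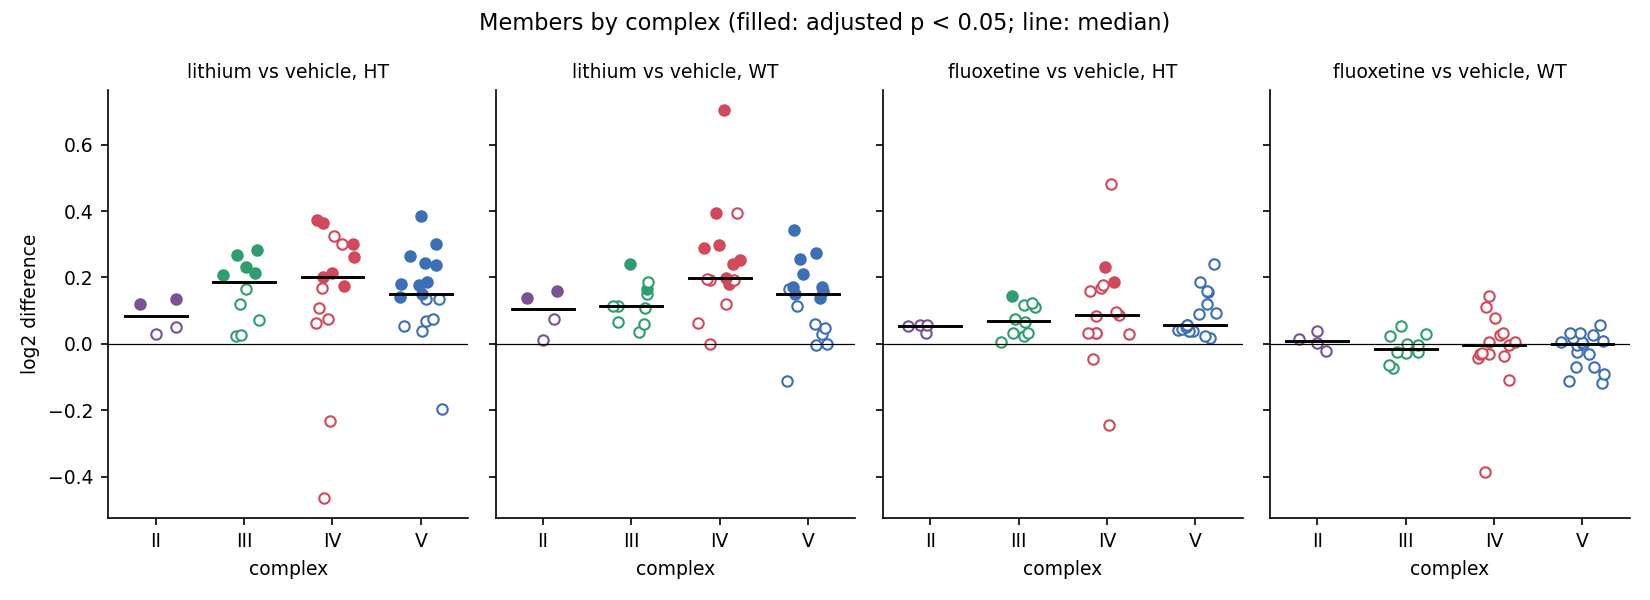
Log2 differences against vehicle of the 46 genes by complex (points, with the median as a line) for lithium and fluoxetine in HT and in WT, with filled points for genes that passed. The lithium medians lie between 0.08 and 0.20, and the median over all 46 genes under fluoxetine is 0.06 in HT and -0.0021 in WT.

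Lithium and fluoxetine were then set side by side, at whatever doses were used, which the labels do not give. In HT, 9 of the 46 genes were higher under lithium and 0 lower, where 6.25% of all genes passed and 3.19% were higher. These were Atp5c1, Atp5f1, Atp5h, Atp5o, Cox5a, Cox5b, Cox7a2l, Uqcrb and Uqcrc2, and the smallest p was that of Atp5c1, at 0.18 ± 0.04 (adjusted p = 0.00233, and 0.0609 with only the groups compared). Atp5c1 was 5527 to 7601 (median 5980.4) in HT lithium and 5021 to 5743 (median 5328) in HT fluoxetine, with overlapping arms. Leaving out HT lithium female 4 left 4 genes in HT. Leaving out HT fluoxetine female 3, HT fluoxetine male 1 or HT lithium male 2 left 5 each, and leaving out HT lithium female 5 gave 12 higher and 1 lower. The share of all genes passing in these fits is not set beside the counts, so they are not a result about the 46 alone. In WT, 24 were higher and 0 lower, where 9.55% of all genes passed and 5.29% were higher, and the median was 0.15 against 0.08 in HT. Cox5a differed by 0.29 ± 0.04 (adjusted p = 1.83e-06), from 2430 to 2847 in WT lithium and 1830 to 2438 in WT fluoxetine. For Cox5b the WT arms did not overlap, with lithium higher, which was so for 0.223% of all genes. Without libraries high in olfactory markers 8 of the 46 passed in WT (7.63% of all genes), and 8 passed among libraries with Gm10221 reads (4.32%). In females alone 1 passed (1.9% of all genes) and in males alone 20 (4.34%).

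No genotype difference passed. HT against WT gave 0 of 46 genes in vehicle, 0 in fluoxetine and 0 in lithium by limma, by edgeR and by DESeq2, where 0% of all genes passed by limma. With an unadjusted limma p under 0.05 there were 0 in vehicle (median -0.0082), 15 in fluoxetine (median 0.08, 42 of 46 above 0) and 4 in lithium (median -0.0047). The smallest p values were those of Cox5a in vehicle (-0.08 ± 0.04, adjusted p = 0.947), Cox5a in fluoxetine (0.16 ± 0.04, adjusted p = 0.388) and Uqcrb in lithium (0.14 ± 0.05, adjusted p = 0.195). Uqcrb was 1642 to 2283 (median 1767) in HT lithium and 1434 to 1822 (median 1598) in WT lithium, so that the arms overlapped.

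The drug effects themselves were compared between genotypes as interactions. For lithium 0 of 46 genes passed by limma, edgeR and DESeq2 (0% of all genes by limma), 2 had an unadjusted p under 0.05, and the median of HT minus WT was 0.0093. Atp5f1 had the smallest p (0.16 ± 0.06, adjusted p = 0.647). For fluoxetine also 0 passed by limma, edgeR and DESeq2 (0% of all genes by limma), although 45 of 46 genes had a larger estimate in HT, with a median of 0.09 and 3 with an unadjusted p under 0.05. Cox5a had the smallest p (0.23 ± 0.06, adjusted p = 0.731). The 4 genes that passed for fluoxetine in HT and the 0 in WT are not shown to differ by genotype. The 45 estimates share the same libraries and are not 45 separate observations.

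Differences between the sexes in the drug effects gave 0 genes for lithium (0% of all genes) and 0 for fluoxetine (0.0335% of all genes) by limma, and 0 for both by edgeR and DESeq2. With an unadjusted p under 0.05 there were 2 for lithium and 3 for fluoxetine. The smallest p values were those of Cox7a1 for lithium (female minus male 1.03 ± 0.30, adjusted p = 0.9999) and of Uqcrc2 for fluoxetine (0.17 ± 0.07, adjusted p = 0.9998). Each estimate is the mean over HT and WT. In HT, Uqcrc2 averaged 5054 in fluoxetine females and 4315 in vehicle females, and 4740.2 in fluoxetine males and 4711 in vehicle males. Gm10221 reads were present in fluoxetine females and in none of the fluoxetine males. The sex difference in the fluoxetine effect therefore cannot be told apart from whatever set those libraries apart.

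The lithium difference was measured beside transcript length, because the 46 genes are short. Their median transcript was 736 bases against 2560 for all genes tested, and 63.0% of them against 10.9% were under 1000 bases. Over all 1953 genes under 1000 bases the median lithium difference was 0.06 in HT, with 294 higher and 80 lower, and 0.05 in WT, with 196 higher and 33 lower. Over the 7076 genes above 3000 bases it was -0.03 in HT, with 326 higher and 829 lower, and -0.03 in WT, with 142 higher and 303 lower. Within the 46, 14 of the 29 genes under 1000 bases passed in HT (median 0.18) and 10 of the 17 longer ones (median 0.14). In WT these were 14 of 29 (median 0.19) and 7 of 17 (median 0.11). When trends of the log values on length and GC content were removed from each library, 18 genes passed in HT (median 0.08), where 16.6% of all genes did, and 12 in WT (median 0.07), where 6.63% did. Cox5a was then at 0.25 in HT and 0.19 in WT and Cox5b at 0.31 in HT and 0.32 in WT.

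Library by library, the median deviation of the 46 genes from their mean over all libraries ranged from -0.04 to 0.40 in HT lithium and from -0.0043 to 0.19 in WT lithium, with arm medians of 0.08 and 0.09, against -0.06 in HT vehicle and -0.06 in WT vehicle. The difference between the medians of other genes under 1000 bases and of other genes above 3000 bases had arm medians of 0.05 in HT lithium, 0.04 in WT lithium, -0.03 in HT vehicle and -0.06 in WT vehicle. HT lithium female 4 was highest on both measures (0.40 and 0.36). Beyond that removal of trends, what share of the lithium difference goes with this balance was not tested.

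**Figure D5:**
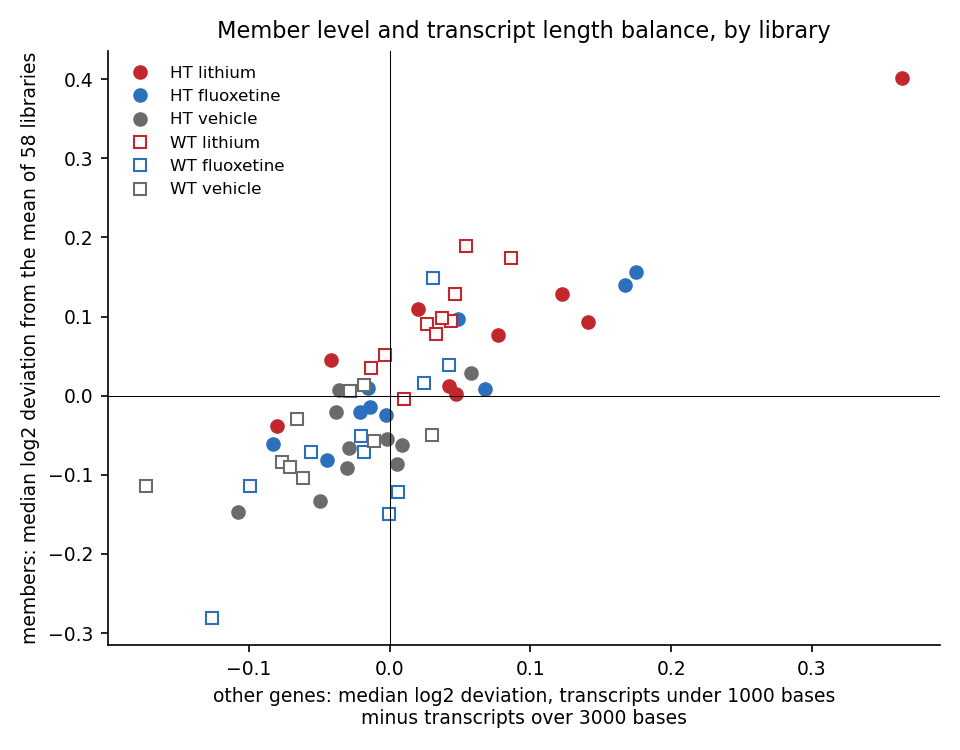
For each of the 58 libraries, the median log2 deviation of the 46 genes (y axis) against the median deviation of other genes with transcripts under 1000 bases minus that of other genes over 3000 bases (x axis, log2), coloured by drug with filled circles for HT and open squares for WT. HT lithium female 4 stands at 0.36 and 0.40, apart from all other libraries.

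A term for libraries with Gm10221 reads was added as another setting, with arms and sex as the remaining terms. Lithium against vehicle then gave 0 genes in HT (median 0.18, 44 of 46 above 0, 35 with an unadjusted p under 0.05) and 0 in WT (median 0.17), and fluoxetine in HT gave 0 (median 0.08). Over all genes, 0 passed for lithium in HT, 0.0167% in WT and 1.03% for fluoxetine in HT, so that the count of 0 is near that of all genes for lithium. Cox5b was at 0.29 in HT (adjusted p = 0.067) and 0.31 in WT (adjusted p = 0.0809), and Cox5a at 0.22 in HT (adjusted p = 0.108) and 0.14 in WT (adjusted p = 0.343). In that fit the term rests on the fluoxetine libraries, since every lithium library and no vehicle library has such reads. For the term itself 0 of the 46 genes passed and 18 were above 0, with a median of -0.02. Among WT fluoxetine females, 11 of 46 genes had a higher mean in the 3 libraries with such reads than in the 2 without. The same count was not made over all genes. The 2 without differed: the median deviation of the 46 genes was 0.15 in WT fluoxetine female 5 and -0.05 in WT fluoxetine female 1. In the 3 with such reads it ran from -0.15 to 0.04, so the count rests much on WT fluoxetine female 5.

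Markers of neighbouring tissue and of other cell types were measured in the same comparisons. All 8 markers of striatal projection neurons had positive lithium differences in both genotypes, and 2 passed: Penk at 0.67 ± 0.18 in HT (adjusted p = 0.00766) and 0.71 ± 0.18 in WT (adjusted p = 0.00936), and Tac1 at 0.62 ± 0.16 in HT (adjusted p = 0.00537) and 0.53 ± 0.16 in WT (adjusted p = 0.0341). Their summed normalized counts ran from 5361 to 19163 in HT lithium, 4991 to 12449 in HT fluoxetine, 4455 to 5602 in HT vehicle, 6018 to 19162 in WT lithium, 5026 to 6251 in WT fluoxetine and 4587 to 6723 in WT vehicle, and none of the 8 was at 0 in any library. Without the 5 libraries above a sum of 9000 (HT fluoxetine male 3 and male 4, HT lithium female 2, WT lithium male 1 and male 3), 24 of the 46 genes passed in HT, where 16.0% of all genes did, and 14 in WT, where 4.83% did, for lithium against vehicle. The 8 olfactory bulb and neuroblast markers also had positive differences in both genotypes and 0 passed, with sums of 1188 to 8711 in HT lithium, 1025 to 12138 in HT vehicle, 1149 to 11410 in WT lithium and 1024 to 9211 in WT vehicle. Without the 6 libraries with the highest olfactory sums, 26 passed in HT, where 18.0% of all genes did, and 22 in WT, where 8.18% did. Of 6 endothelial markers 0 were above 0 in HT (median -0.19) and 1 in WT, where Emcn was lower (-0.31, adjusted p = 0.0497). Of the markers of cortical excitatory and inhibitory neurons, astrocytes, oligodendrocytes and red blood cells 0 passed in either genotype, and of 6 microglial markers 1 was higher in WT. What part any of these has in the lithium difference was not tested.

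Other mitochondrial genes were counted from lists of known function. Beside these counts, 8.25% of all genes tested were higher under lithium in HT and 4.34% in WT. Under fluoxetine 1.46% were higher in HT and 0.469% in WT. Of 36 nuclear-coded subunits of complex I, the NADH dehydrogenase, 19 were higher and 0 lower under lithium in HT (median 0.14) and 13 higher and 0 lower in WT (median 0.14), led by Ndufv2 at 0.42 in HT and 0.34 in WT and Ndufc2 at 0.40 in HT and 0.36 in WT. Under fluoxetine 5 were higher in HT and 0 in WT. Of 36 assembly factors of complexes II to V, 10 were higher in HT and 5 in WT under lithium and 0 lower. Among these were Cox17, a copper chaperone for complex IV (0.29 ± 0.05 in HT, adjusted p = 0.000161), and Cox11, which inserts copper (0.26 ± 0.05 in HT and 0.37 ± 0.05 in WT, adjusted p = 8.47e-07 in WT). Cox11 was the assembly factor that passed for fluoxetine in HT (0.22 ± 0.05, adjusted p = 0.00405), and 0 passed in WT. Of 13 citric acid cycle enzymes 5 were higher under lithium in HT, led by Idh3a (0.27 ± 0.04, adjusted p = 1.00e-05), and 1 in WT, the same Idh3a at 0.13. Of 9 membrane carriers and translocases, 8 were higher in HT, among them Timm23, Slc25a4, Slc25a5 and Vdac2, and 1 in WT, Slc25a5.

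Of 6 mitochondrially coded subunits of complexes III to V, mt-Atp6 was higher under lithium (1.25 ± 0.19 in HT, adjusted p = 7.53e-06, and 1.14 ± 0.19 in WT), mt-Co2 was lower (-0.76 ± 0.18 in HT, adjusted p = 0.00187, and -0.70 ± 0.18 in WT), and mt-Co3 was higher in HT (0.69 ± 0.24, adjusted p = 0.0413). Under fluoxetine mt-Atp6 passed in HT (0.73, adjusted p = 0.0188) and 0 passed in WT. Among WT fluoxetine females, the 3 that have Gm10221 reads held 44646 to 65695 normalized counts of mt-Atp6 and 37330 to 48470 of mt-Co3, against 11019 to 23007 of mt-Atp6 and 22630 to 27187 of mt-Co3 in the 2 that have none. These values do not overlap, but 3 libraries against 2 are too few to tell such a split from chance. In the same split the values of mt-Co1, mt-Co2, mt-Atp8 and mt-Cytb overlapped, and the share of all genes that separate was not counted. The part of mt-Atp6 and mt-Co3 in the lithium difference was not tested. mt-Co1, mt-Atp8 and mt-Cytb passed in neither genotype under either drug, and near-identical nuclear copies of mitochondrial genes make these values uncertain. Over all genes tested, 16.3% passed in either direction under lithium in HT and 7.47% in WT, and under fluoxetine 3.54% in HT and 1.38% in WT. Of 15 regulators of nuclear-coded respiratory genes, 0 were higher. Ppargc1b (-0.28 ± 0.09, adjusted p = 0.0254) and Pprc1 (-0.17 ± 0.06, adjusted p = 0.0269), coactivators of the PGC-1 family, were lower under lithium in HT, and 0 passed in WT. Under fluoxetine the same pair was lower in both genotypes: Ppargc1b at -0.42 in HT (adjusted p = 0.00295) and -0.37 in WT (adjusted p = 0.0181), and Pprc1 at -0.22 in HT (adjusted p = 0.00974) and -0.30 in WT (adjusted p = 0.00089). Atpif1, the inhibitor of ATP synthase, differed by 0.14 in HT and 0.13 in WT under lithium and did not pass.

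Across libraries the 46 genes varied together in part. After the group means were removed, 38 of 46 had a Pearson r above 0.5 with the mean of the other genes of the set over the 58 libraries. The r ran from 0.92 for Cox6b1 to -0.07 for Cox7a1. These points share each library's depth and length balance, and they include HT lithium female 4, the highest library for 31 of the 46. The same count was not made for genes outside the set. Over the 12 group means, the genes outside the set most like its mean standardized level were Fam216a (r = 0.977), Ndufb8 (0.975), Acot13 (0.975), Rab5if (0.973) and Nenf (0.972). The mean standardized level per library (the mean of each gene's deviation from its mean in units of its SD) had medians of 0.44 in HT lithium, -0.08 in HT fluoxetine, -0.51 in HT vehicle, 0.55 in WT lithium, -0.50 in WT fluoxetine and -0.43 in WT vehicle. Its highest value was 2.67 in HT lithium female 4 and its lowest -1.78 in WT fluoxetine male 5.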

How the data were processed

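Polyadenylated RNA of prefrontal cortex was sequenced from 58 mice with a stranded kit, per the labels' protocols. The submitters' processing notes name DESeq2 1.19.11, R 3.6.0, Salmon 0.11.2 and the genome build GRCm38; the options are not given in the sources used here. The deposited table gives a signal for each gene, its reads scaled by the library's size factor, which assumes that most genes do not change. In every column 100% of values were whole multiples of a step (0.788 to 1.30) within 0.01, so reads were recovered; in 11 columns the step lay within 0.01 of 1, so this check alone cannot tell reads from rounded values there. Near-identical genes share reads, so values of genes with pseudogene or retroposed copies are uncertain. No library repeated another within sampling noise.

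The 46 genes, the other gene lists, the markers and the motifs were chosen with earlier results of these data known. Genes were named by rule: those with the smallest p in each complex for each drug against vehicle, the smallest in every other comparison, and the isoform genes. Annotation was GENCODE on GRCm38, in which 18077 identifiers were found, and promoters came from RefSeq GRCm38.p6. The test was limma 3.58.1 in R 4.3.3, with trend, on log2(deposited value + 1), over 17925 genes that reached 10 in 4 libraries or more. The pseudocount of 1 makes log2 differences of low genes too small. One fit held 12 groups of genotype, drug and sex, and each contrast weighed the sexes equally; p-values were two-sided and adjusted by Benjamini-Hochberg within a comparison. Alternatives were edgeR 4.0.16 and DESeq2 1.42.0 on recovered reads, other scalings, filters, pseudocounts and library subsets, a replicate block, a term for Gm10221 reads and removal of length and GC trends; leaving out libraries high in striatal or olfactory markers was added after seeing the data. The procedure was tested on simulated data. Depth limits the rare isoforms, which have few reads in a library.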

Additional observations from a re-analysis of the deposited data

Results flagged for a closer look

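A single library lay far from the others of its group, by Dixon's criterion, in 9 of 108 groups examined. Chance alone marks about 1 group in 20. The values examined were 9, each in 12 groups: the normalized counts of single genes and the mean standardized level per library. All 9 groups that stood out were of normalized counts. HT lithium female 4 was the high value in 4 of them, with 3291 for Cox5a, 6229.7 for Cox5b, 8634 for Atp5f1 and 2283 for Uqcrb. Cox5b also stood apart in WT lithium male 3 at 5444 and in WT vehicle male 1 at 3773. Atp5c1 was 5625 in WT lithium male 5. The rare isoforms gave 19.2 for Cox4i2 in WT lithium female 1 and 18.4 for Cox7a1 in WT vehicle female 5.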

How the results depend on the processing

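Of 198 recounts of passing genes under other settings, 179 stayed within 1.5 times the main count. Comparisons with a main count of 0 gave 0 again each time, and each such recount is among the 179. The 19 that moved were all in comparisons with a main count above 0. With females alone, lithium against vehicle gave 11 genes in HT (3.96% of all genes passed) and 2 in WT (0.725%). Fluoxetine against vehicle gave 2 in HT (1.32%), and lithium against fluoxetine 0 in HT (0.184%) and 1 in WT (1.90%). With males alone, lithium against vehicle gave 13 in HT (3.33% of all genes) and 7 in WT (1.44%), and fluoxetine against vehicle 0 in HT (0.123%). With a term for Gm10221 reads, lithium against vehicle gave 0 in HT (0% of all genes) and 0 in WT (0.0167%). In that fit fluoxetine against vehicle gave 0 in HT (1.03%) and lithium against fluoxetine 3 in HT (1.22%). The term could not be had for the sex comparisons. Among libraries without Gm10221 reads fluoxetine against vehicle gave 0 in HT (0.536% of all genes). Among those with them lithium against fluoxetine gave 0 in HT (0.0948% of all genes) and 8 in WT (4.32%). Removing length and GC trends left 12 in WT for lithium (6.63% of all genes). Lithium against fluoxetine in HT gave 2 when the fit held only the groups compared (2.10% of all genes). It gave 5 in HT without libraries high in striatal markers, and 8 in WT without those high in olfactory markers. The share of all genes passing in that HT fit is not given, so the 5 is not a result about the respiratory genes alone. The cause was not tested, except that smaller fits hold fewer samples.

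Leaving out each library in turn gave 18 to 26 genes for lithium in HT (of the 26, without HT lithium female 5, 25 were higher and Cox4i2 was lower), 16 to 26 in WT, 3 to 5 for fluoxetine in HT, 4 to 13 (12 higher and 1 lower) for lithium against fluoxetine in HT and 20 to 33 in WT, and 0 throughout in the other comparisons. The share of all genes passing in each of these fits is not set beside the ranges. The ranges are therefore not a result about the respiratory genes alone. Replicate numbers did not pair the libraries (74 of 309 pairs of the same number correlated above 0.1, mean r = -0.00017). With a replicate block, lithium against vehicle gave 23 in HT (15.4% of all genes) and 23 in WT (7.64%). Fluoxetine against vehicle gave 4 in HT (3.94%), and lithium against fluoxetine 7 in HT (5.73%) and 24 in WT (9.44%).

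Single genes changed sign in 25 of 1014 other recounts. With length and GC trends removed, lithium gave -0.013 for Cox6a1 and -0.088 for Cox6b1 in HT, and -0.014 for Uqcr11, -0.040 for Cox4i1, -0.062 for Cox6b1 and -0.029 for Cox6b2 in WT, and fluoxetine -0.0082 for Uqcrb in WT. In males alone, Cox7a1 was -0.35 for lithium in HT, Sdhc -0.0070 and Sdha -0.0022 for fluoxetine in HT, Sdhc -0.00099 for fluoxetine in WT, and Cox5a 0.044 for HT against WT in vehicle. Atp5g2 under lithium was 0.33 in HT females, and with the Gm10221 term 0.55 in HT and 0.61 in WT. Sdhd under fluoxetine in WT was 0.013 without Gm10221 libraries, 0.056 without olfactory-high ones and -0.050 to 0.0068 on leaving out a library. Cox4i2 under lithium in WT was -0.019 by edgeR, -0.020 by DESeq2, -0.0020 with a pseudocount of 5, -0.0099 after quantile normalization, -0.0021 in females, -0.40 with the Gm10221 term, -0.10 without trends, -0.0076 without olfactory-high libraries and -0.084 to 0.061 on leaving out a library. Depth limits the rare isoforms Cox4i2, Cox6b2 and Cox7a1, with means of 12.4 to 24.4 normalized counts.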
